A study of Rattus norvegicus with 56 samples.

Results

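Serotonin is released in the forebrain by fibers from the raphe nuclei, and the receptor that a cell carries sets what it does there. The Htr1 receptors and Htr5a couple to Gi/o proteins, which lower cAMP and open inward-rectifier potassium channels. Htr5b is grouped with them here by family alone, and its coupling was not measured. Htr2 receptors couple to Gq and phospholipase C, Htr4 and Htr7 raise cAMP through Gs, and Htr3 receptors are the exception, as they form a ligand-gated cation channel. Of these, Htr1a is known as an inhibitory receptor of hippocampal pyramidal neurons and Htr2a as a receptor of cortical pyramidal neurons. In the rodent brain Htr5b transcripts are known from hippocampal field CA1 and the habenula, and Htr2c is known for its very high expression in the choroid plexus.

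The transcripts of 10 serotonin receptor genes were followed in 2 brain regions of 24 male Long-Evans rats. The genes were taken as every non-control probe of the array whose RefSeq accession belongs to Htr1a, Htr1b, Htr1d, Htr2a, Htr2c, Htr3a, Htr4, Htr5a, Htr5b or Htr7, which gave 12 probes of the 45598 distinct probes and 10 of the 16575 gene symbols that could be assigned. Htr1b (A_43_P15558 and A_44_P1146812) and Htr2c (A_44_P792784 and A_43_P11553) had 2 probes each, and the first named, the brighter, describes the gene. The others had 1 probe each: A_64_P052031 for Htr1a, A_43_P15445 for Htr1d, A_64_P033249 for Htr2a, A_64_P014096 for Htr3a, A_44_P1082119 for Htr4, A_64_P142011 for Htr5a, A_43_P16232 for Htr5b and A_64_P128139 for Htr7.

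The rats received either intermittent theta-burst stimulation (iTBS), in which magnetic pulses are given to the brain in short patterned bursts, with the coil over the head, or sham treatment, and tissue was taken 48 h later. All were lightly anesthetized with isoflurane and sedated with dexmedetomidine, sham animals included. Young rats were 6-7 months old and aged rats 26-27 months old, and the aged were split by their water maze scores into unimpaired (AU) and impaired (AI) animals. There were 4 young sham (Y_Sham) and 4 young stimulated animals (Y_iTBS), 4 AU_Sham with 5 AU_iTBS, and 4 AI_Sham with 3 AI_iTBS, each with 1 sample of hippocampus and 1 of parietal cortex, which were whole dissections without a sort of cell types. In such tissue, fewer cells of a type and less RNA per cell cannot be told apart.

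Values are normalized log2 signals of 1-color arrays, on which 0 is the mean of all probes of an array, and a value can be compared between samples for the same probe but not between probes. The scanner calls a spot well above background or not, and between 59.4% and 69.7% of the probes passed on an array. Of the 24 hippocampus arrays, Htr1a, Htr1b, Htr2a, Htr2c, Htr3a, Htr4 and Htr5b passed on 24, Htr5a on 18, Htr7 on 16 and Htr1d on 1. In the cortex Htr2a, Htr2c and Htr3a passed on 24 arrays, Htr5a on 23, Htr1d on 18, Htr7 on 14, Htr1a on 12, Htr1b on 10, Htr5b on 8 and Htr4 on 4. Only Htr2a, Htr2c and Htr3a were thus measured in both regions of every animal. On 6 arrays hybridized again from the same samples, the median difference from the first array was lowest for Htr2a, at 0.056, and highest for Htr5a, at 0.492, and the largest single differences were 1.93 for Htr1b and 1.39 for Htr7.

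The dissections carried the markers of their labels. Of 7 hippocampus marker genes tested, 6 were higher in the hippocampus of sham animals and none was lower, and of 8 cortex markers 6 were higher in the cortex and 1 in the hippocampus. Some choroid plexus markers were present as well: 9 of 13 were higher in the hippocampus, and the mean level of the 13 ran from -1.91 to 2.51 over the hippocampus arrays and from -2.46 to 0.38 over the cortex arrays. The defining choroid plexus transcript Ttr, the carrier of thyroid hormone in cerebrospinal fluid, was well above background on 24 arrays of each region. In the cortex Folr1, Aqp1 and Steap1 also passed on 24 arrays, Sostdc1 on 23, Kcnj13 on 19 and Otx2 on 15. There Slc4a5 passed on 4, Cldn2 on 3 and Kl, Clic6, Tmem72 and Prlr on 1 each. In the hippocampus the last 6 named passed on 8, 7, 7, 14, 4 and 3 arrays. Of the 3 habenula markers tested, 2 were higher in the hippocampus and 1 in the cortex. A further habenula marker, Gpr151, was well above background on 0 arrays of either region and was not tested.

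RefSeq promoter sequences (build GRCr8) were at hand for 6 of the 10 genes, and the 3 of these 6 with the largest difference between the regions are shown. Each is the 250 bases before the gene's start, read 5′ to 3′ on the gene's strand, with matches to the GC box, GGGCGG on either strand, in capitals. Htr5b, at chr13:35252587-35252836 on the minus strand, and Htr1b, at chr8:91414816-91415065 on the minus strand, were higher in the hippocampus, and Htr1d, at chr5:153939485-153939734 on the plus strand, was higher in the cortex.

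Htr5b: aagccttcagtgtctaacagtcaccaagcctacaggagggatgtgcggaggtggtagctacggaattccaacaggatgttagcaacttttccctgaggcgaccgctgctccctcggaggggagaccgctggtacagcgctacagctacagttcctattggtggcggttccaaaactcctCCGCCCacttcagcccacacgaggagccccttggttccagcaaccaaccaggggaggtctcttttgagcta
Htr1b: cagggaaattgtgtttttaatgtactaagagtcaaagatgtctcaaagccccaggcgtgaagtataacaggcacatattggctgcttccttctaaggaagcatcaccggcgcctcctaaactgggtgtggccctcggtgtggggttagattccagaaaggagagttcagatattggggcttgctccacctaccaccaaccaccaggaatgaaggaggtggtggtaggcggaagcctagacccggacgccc
Htr1d: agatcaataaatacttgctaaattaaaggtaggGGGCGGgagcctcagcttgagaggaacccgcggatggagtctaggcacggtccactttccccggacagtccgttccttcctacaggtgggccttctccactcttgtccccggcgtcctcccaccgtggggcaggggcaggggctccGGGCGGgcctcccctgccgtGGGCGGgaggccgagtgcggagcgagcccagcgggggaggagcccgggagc

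The Htr1d sequence held 3 GC boxes and 18 CpG dinucleotides and the Htr5b sequence 1 GC box and 10 CpG, while that of Htr1b held no GC box and 7 CpG. A GC box is found in 30.5% of all 33469 RefSeq promoters of this length, and their median CpG count is 5. No match to the cAMP response element TGACGTCA, the E-box CAGCTG or the TATA box letters TATAAA was found on either strand of the 6 promoters, where 1.59%, 12% and 12.9% of all promoters hold one. These are matches of letters and not measured binding sites.

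The first comparison asked how the receptors are divided between the 2 regions of the same animals. In the 12 sham animals, Htr5b, Htr1a, Htr4, Htr1b and Htr2c were higher in the hippocampus, Htr1d, Htr2a, Htr5a and Htr3a were higher in the cortex, and for Htr7 no difference could be seen. By size, the hippocampal side was led by 3 receptors grouped as Gi/o-coupled, Htr5b among them, and the Gs-coupled Htr4. The cortical side was led by the Gi/o-coupled Htr1d and the Gq-coupled Htr2a. By limma on the within-animal differences, with Benjamini-Hochberg adjustment over all probes tested, 9 of 10 genes passed an adjusted p of 0.05, 5 higher in the hippocampus and 4 higher in the cortex. Of all 33736 probes tested 35.9% passed, 19.2% higher in the hippocampus and 16.7% lower. The 2 regions did not overlap over the 12 sham animals in 5 receptors (Htr1a, Htr1b, Htr2a, Htr4 and Htr5b), compared with 5.29% of all probes. The median difference of all probes was 0.026.

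**Figure D1:**
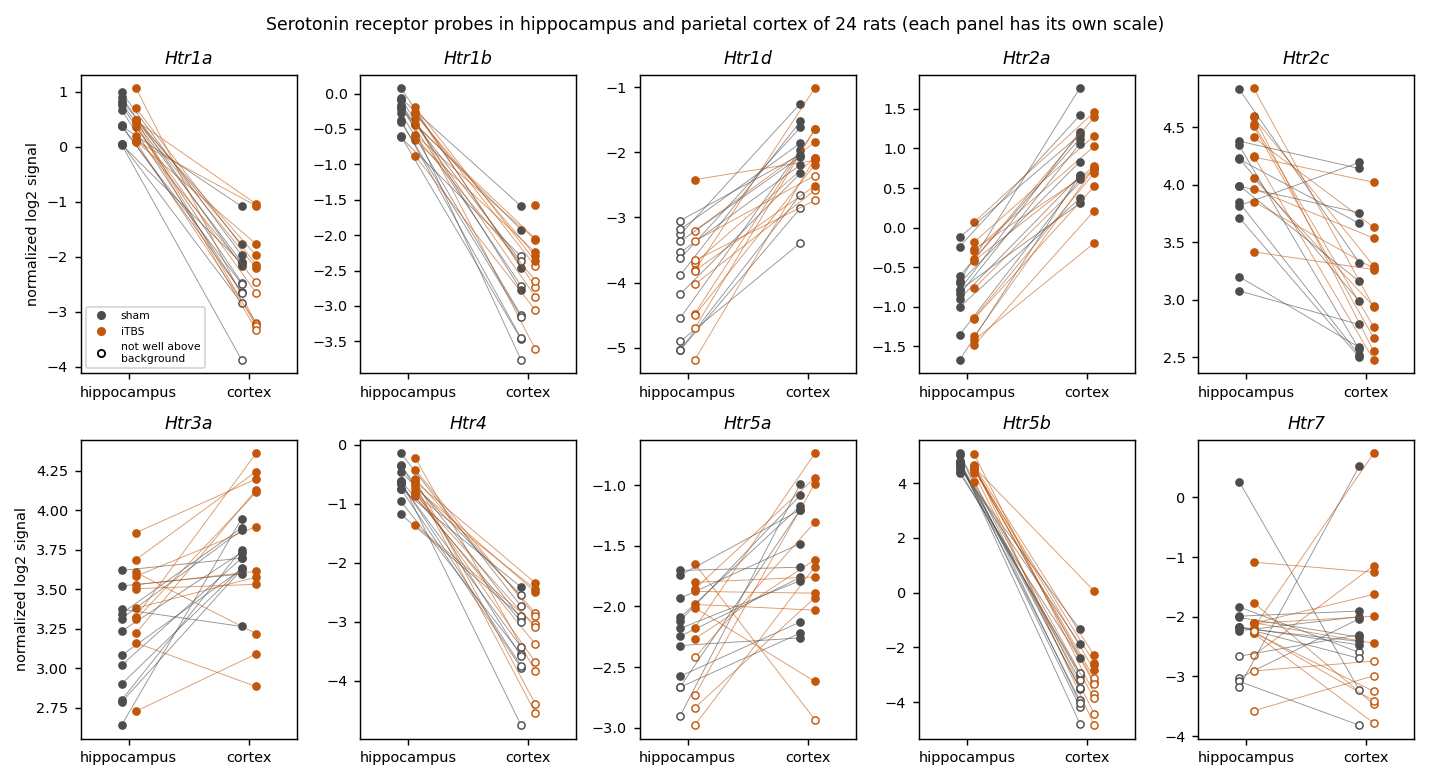
Normalized log2 signal of each receptor probe (vertical axis, own scale per panel) in both regions of 24 rats. Each point is an animal, gray for sham and orange for iTBS, lines join the 2 regions of an animal, and open points were not well above background. The regions stand fully apart for Htr1a, Htr1b, Htr4 and Htr5b in sham and in iTBS animals.

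Among the receptors grouped as Gi/o-coupled, Htr5b differed most. In sham hippocampus its signal ran from 4.36 over a median of 4.74 to 5.09, and in sham cortex from -4.78 over -3.34 to -1.33. All hippocampus values lay in a narrow band, while the cortex values were spread widely and only 3 of 12 were well above background. The difference was 7.94 (SE 0.299, 95% interval 7.32 to 8.57, limma adjusted p 4.98e-14). With the cortex set no lower than the dimmest signal called well above background, the hippocampus was at least 160.3-fold higher. Folds given as at least hold only under this normalization and over all scans. With normexp background correction the difference was 5.44.

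Htr1a ran from 0.04 over 0.53 to 0.99 in sham hippocampus and from -3.87 over -2.32 to -1.08 in sham cortex. Every animal was higher in the hippocampus, and the cortex signal was well above background in 6 of 12. The difference was 2.87 (SE 0.215, 95% interval 2.42 to 3.32, limma adjusted p 9.42e-10), or at least 6.97-fold.

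Htr1b, which acts as a release-limiting receptor on axon terminals, ran from -0.62 over -0.21 to 0.08 in sham hippocampus and from -3.76 over -2.74 to -1.59 in sham cortex, where 4 of 12 samples passed the background call. The difference was 2.51 (SE 0.144, limma adjusted p 3.03e-11), or at least 5.37-fold, with all 12 animals higher in the hippocampus. The second Htr1b probe, which matches a non-coding RefSeq record of the gene, showed a smaller difference in the same direction (0.95, limma adjusted p 0.000842).

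Htr1d, a receptor of the same class and likewise found on axon terminals, went the other way. It was not well above background in any sham hippocampus, with values from -5.04 over -3.76 to -3.05, and ran from -3.39 over -2.05 to -1.25 in sham cortex, where 9 of 12 samples passed. The ranges touched, but within each of the 12 animals the cortex was higher. The difference was -1.82 (SE 0.174, limma adjusted p 3.79e-08), or at least 1.80-fold higher in the cortex. Htr1d entered this test through the cortex alone, as it passed the background call on 1 of 24 hippocampus arrays. Its p-value thus sets a cortex signal against hippocampus background.

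Htr5a, the second Htr5 receptor, stood opposite to Htr5b. Its sham values were -2.90 to -1.70 in the hippocampus (median -2.21) and -2.26 to -0.99 in the cortex (median -1.58). The ranges overlapped, and all 12 animals were higher in the cortex. The difference was -0.68 (SE 0.196, limma adjusted p 0.00938), and it did not pass within the largest group of arrays scanned together (-0.52, adjusted p 0.07). In the later scans it was -1.27 (adjusted p 0.00668).

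Of the Gq-coupled receptors, Htr2a was higher in the cortex and Htr2c in the hippocampus. Htr2a ran from -1.67 over -0.79 to -0.12 in sham hippocampus and from 0.31 over 0.95 to 1.76 in sham cortex, all of them well above background. No hippocampus value reached the lowest cortex value. The difference was -1.74 (SE 0.105, 95% interval -1.96 to -1.52, limma adjusted p 3.31e-11), a 3.33-fold higher signal in the cortex.

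Htr2c ran from 3.08 over 3.99 to 4.83 in sham hippocampus and from 2.50 over 3.07 to 4.20 in sham cortex. The ranges overlapped over more than 1 unit, and 11 of 12 animals were higher in the hippocampus. The difference was 0.79 (SE 0.193, 95% interval 0.39 to 1.19, limma adjusted p 0.0029), or 1.73-fold. The second probe, close to background, gave 0.42 (limma adjusted p 0.322), and the mean of both probes did not pass (0.60, adjusted p 0.0556). Choroid plexus markers were also higher in the hippocampus, and their part in this difference was not tested beyond the correlation given further on.

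Htr3a, the channel-forming subunit that in the forebrain marks a class of cortical interneurons, ran from 2.64 over 3.16 to 3.62 in sham hippocampus and from 3.26 over 3.70 to 3.95 in sham cortex. Of 12 animals 11 were higher in the cortex, with a difference of -0.56 (SE 0.113, limma adjusted p 0.000519), or 1.47-fold.

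The 2 Gs-coupled receptors differed from each other. Htr4 ran from -1.18 over -0.63 to -0.15 in sham hippocampus and from -4.76 over -3.21 to -2.42 in sham cortex, where 1 of 12 samples was well above background. The regions stood apart by 2.66 (SE 0.213, limma adjusted p 2.6e-09), or at least 4.66-fold. Htr7 ran from -3.18 over -2.18 to 0.26 in sham hippocampus and from -3.82 over -2.38 to 0.52 in sham cortex. Its difference of 0.08 had a 95% interval of -0.83 to 0.99, so that a difference of either sign up to about that size could not be seen.

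The 12 iTBS animals gave a second set of the same comparison. Here 8 of 10 genes passed, 5 higher in the hippocampus and 3 higher in the cortex, against 32.5% of all probes (17.1% higher and 15.4% lower), and the regions did not overlap in 4, against 4.77%. The median difference of all probes was 0.012. Htr5b was higher in the hippocampus by 7.56 (SE 0.315, 11 animals), Htr1a by 2.81 (SE 0.220), Htr4 by 2.55 (SE 0.218), Htr1b by 2.16 (SE 0.154, 11 animals) and Htr2c by 1.10 (SE 0.197), all at adjusted p of 0.000169 or less. Htr1d at -1.74, Htr2a at -1.49 and Htr3a at -0.37 were higher in the cortex.

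Those 8 genes had the direction they had in sham animals. The second Htr2c probe passed here (1.39, limma adjusted p 0.00207). Htr5a missed the threshold (-0.49, adjusted p 0.0665, 8 of 12 animals higher in the cortex). It was -0.09 in the first scan (adjusted p 0.768) and -1.02 in the later ones (adjusted p 0.00982). Htr7 stayed near 0 (0.05, 95% interval -0.88 to 0.99). One spot of Htr5b (AU_iTBS) and one of Htr1b (Y_iTBS) in the hippocampus were left out as flagged by the scanner, which leaves 11 animals for each. Htr3a no longer passed without the animal AI_iTBS 2 (-0.29, adjusted p 0.0891).

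**Figure D2:**
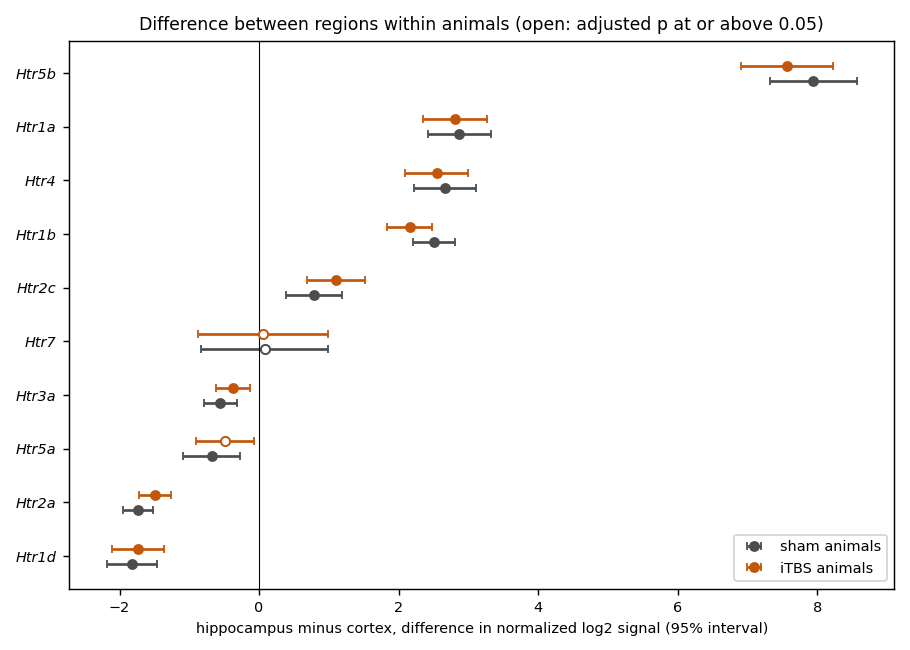
Hippocampus minus cortex difference in normalized log2 signal (horizontal axis) with 95% intervals for each receptor, gray for sham and orange for iTBS animals. Filled points passed an adjusted p of 0.05. Htr5b, Htr1a, Htr4, Htr1b and Htr2c lie to the right of 0, and Htr1d and Htr2a lie farthest to the left.

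Arrays were scanned on 3 occasions. In 8 of the 9 animals scanned later, the hippocampus was scanned on another occasion and scanner than the cortex, so region and scan cannot be told apart in them. In the animals scanned first, the hippocampus lay on slides 1 and 2 and the cortex on slides 3 and 4. Only the cortex of Y_Sham 3 lay on slide 2, so region and slide cannot be told apart there. In that scan AU_Sham lay on slides 1 and 3 and AI_Sham on slides 2 and 4. In the 8 sham animals scanned first, Htr5b differed by 8.25, Htr1a by 3.04, Htr4 by 2.99, Htr1b by 2.54, Htr2c by 0.86, Htr3a by -0.56, Htr2a by -1.80 and Htr1d by -1.77. In the later sham arrays Htr2c (0.63, adjusted p 0.186) and Htr3a (-0.49, adjusted p 0.129) kept their direction without passing. Of the later iTBS arrays, Htr3a showed -0.04 (adjusted p 0.884). No receptor passed in the 3 contrasts of the regional difference by age or treatment, at either threshold, where 0.00296% of all probes passed for age in sham animals and 0% for iTBS in young and aged animals. At an unadjusted p of 0.05 the shares were 6.46%, 2.65% and 2.28%. The nearest were Htr5b, with a smaller regional difference in aged than in young sham animals by 0.98 (SE 0.635, unadjusted p 0.139), Htr1d under iTBS in young animals (0.85, unadjusted p 0.0614) and Htr1b under iTBS in aged animals (-0.48, unadjusted p 0.0705).

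Counts for other genes of the serotonin pathway stand against the 35.9% of all probes that passed between sham regions. Of the other receptors, Htr1f, a further Gi/o-coupled receptor, was higher in sham cortex (-1.13, SE 0.250, limma adjusted p 0.00119), and this was 1 of the 3 tested. Most sham hippocampus values of Htr1f were not well above background, so this sets a cortex signal largely against background. The Htr1f call was lost in the later scans (-1.127). Of 6 synthesis genes tested, 2 were higher in the hippocampus, among them Tph2, the neuronal tryptophan hydroxylase (1.01, limma adjusted p 1.92e-06). Of 6 transport and breakdown genes, Slc29a4, the plasma membrane monoamine transporter, was higher in the hippocampus (1.48, limma adjusted p 1.48e-10). Slc22a3, the organic cation transporter 3, was higher in the cortex (-2.23, limma adjusted p 0.000453). Its sham hippocampus values ran from -4.856 to 0.242, and several were not well above background. Only AI_Sham 1 (hippocampus 0.242, cortex -0.126) and AI_Sham 3 (0.102 and -0.236) went the other way. The regional call of Slc22a3 was lost in the later scans (-1.522).

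Downstream of the receptors, the counts were split. In the Gi/o arm, 1 of 8 genes was higher in the hippocampus, the potassium channel subunit Kcnj6 (1.02), and 2 were higher in the cortex. Of these 2, Gnao1 (-0.25, limma adjusted p 0.0222) lost its call in several settings. Among them were quantile normalization (-0.17, adjusted p 0.211) and scan batch as a block (-0.15, adjusted p 0.13). In the Gq arm, 2 of 8 were higher in the cortex, led by the phospholipase Plcb4 (-1.93). In the Gs arm, 2 of 9 were higher in each region. Adcy1, higher in the hippocampus (0.43, limma adjusted p 0.0316), also lost its call in several settings. Among them were the first scan alone (0.53, adjusted p 0.0978) and scan batch as a block (0.43, adjusted p 0.0561). Of 10 receptor partners and RNA editors, 3 were higher in the cortex, led by Rgs4, a brake on Gi/o and Gq signaling (-2.47), and none in the hippocampus. One of the 3, S100a10 (-0.29, adjusted p 0.0461), lost its call in 17 of 24 fits that left out 1 animal.

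The central question of the study was whether iTBS leaves a change in transcripts after 48 h. No serotonin receptor passed the adjusted threshold in any of the 8 comparisons of iTBS with sham (young, AU, AI and all aged animals, in either region), nor in the 4 comparisons of the iTBS effect between age groups or between AI and AU animals. Of all probes 0 passed except in AI cortex, with 2 of 32612 or 0.00613%, and for the AI minus AU difference in cortex, with 4 or 0.0123%. At an unadjusted p of 0.05, by the 1 probe that describes each gene, 1 gene passed in AU cortex and 2 in the AI minus AU difference in cortex, and 0 in the others. Of all probes, that p was met in the hippocampus by 4.53% in young, 2.29% in AU, 1.88% in AI and 2.46% in all aged animals, by 4.31% for the age difference and by 1.66% for the AI minus AU difference. In the cortex the shares were 2.71%, 8.38%, 4.08% and 2.92%, and 3.22% and 8.74% for the differences. The members' median difference ran from -0.16 in aged hippocampus to 0.08 for the age difference in cortex.

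**Figure D3:**
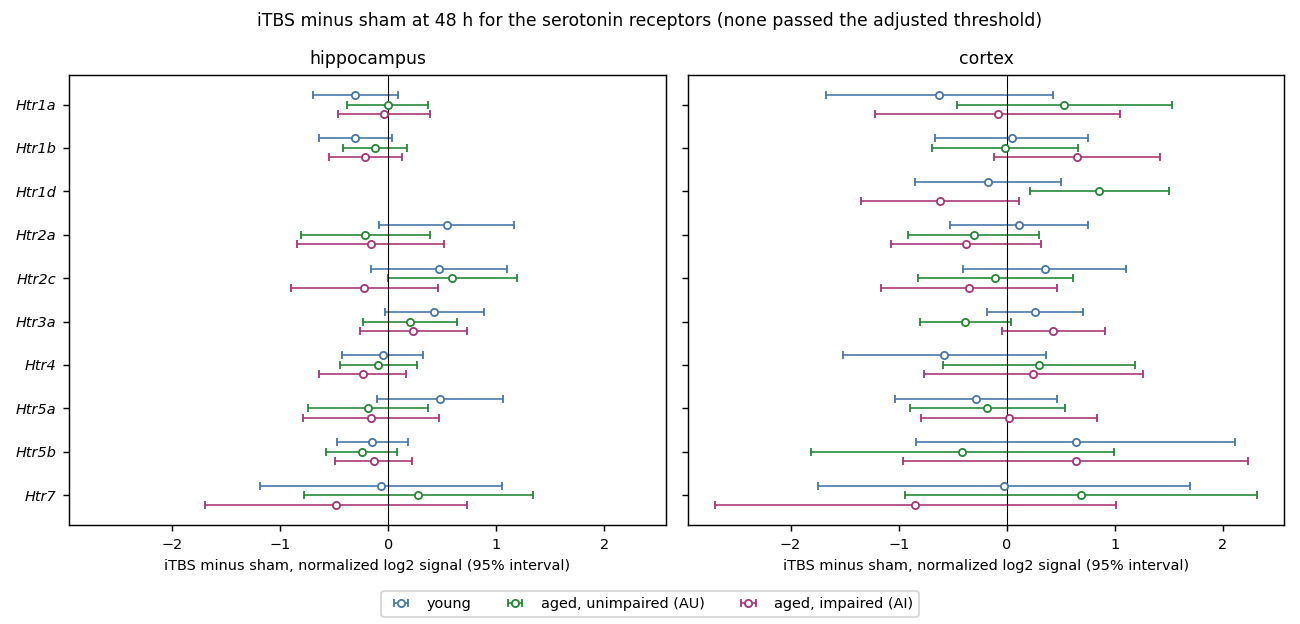
iTBS minus sham difference in normalized log2 signal (horizontal axis) with 95% intervals for the receptors, in young (blue), AU (green) and AI (magenta) animals, for the hippocampus and the cortex. Htr1d was not tested in the hippocampus. All points are open, as none passed the adjusted threshold, and the intervals of the dim probes Htr5b and Htr7 in the cortex are the widest.

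In young hippocampus, Htr2a had the largest difference. It read -0.79, -1.0, -0.61 and -0.67 in Y_Sham and -0.42, 0.07, -0.29 and -0.27 in Y_iTBS. The groups did not overlap, as for 3.15% of all probes. The difference was 0.54 (SE 0.301, 95% interval -0.09 to 1.17, limma adjusted p 0.93). It was 0.48 within the first scan and 0.48 in the later ones. The same hippocampus groups also differed in marker means. Choroid plexus ran from -0.821 to 0.65 in Y_Sham and from -1.905 to -0.878 in Y_iTBS. Habenula ran from -0.195 to 0.113 in Y_Sham and from 0.164 to 0.438 in Y_iTBS. The other marker lists overlapped. The part of tissue content in the receptor differences of young hippocampus was not tested.

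Htr3a in young hippocampus had the smallest unadjusted p. Its values were 2.90, 2.80, 3.02 and 3.35 in Y_Sham and 3.38, 3.22, 3.86 and 3.31 in Y_iTBS. Of the Y_iTBS animals, 2 lay below the highest Y_Sham animal, and the difference was 0.43 (SE 0.219, unadjusted p 0.0653, limma adjusted p 0.93). Htr1b also did not overlap between the groups, at -0.20, 0.08, -0.07 and -0.22 in Y_Sham and -0.28, -0.59 and -0.36 in the 3 measured Y_iTBS animals, a difference of -0.30 (limma adjusted p 0.93).

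In young cortex, the dim probes varied most. Htr5b read -3.04, -4.18, -3.94 and -4.03 in Y_Sham, none well above background, and -2.56, -3.26, -3.13 and -3.69 in Y_iTBS, where 1 was. Its difference of 0.64 (SE 0.709) had an interval of -0.84 to 2.11. Htr4 gave -0.58 (95% interval -1.52 to 0.36, unadjusted p 0.214), with 1 of 8 samples above background.

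In AU hippocampus, Htr2c read 3.82, 4.34, 3.72 and 3.20 in AU_Sham and 3.85, 4.51, 4.59, 4.25 and 4.60 in AU_iTBS. All iTBS animals lay above the sham mean, and 1 sham animal lay within their range. The difference was 0.59 (SE 0.286, 95% interval -0.01 to 1.19, unadjusted p 0.0519, limma adjusted p 1), and 0.67 and 0.50 within the first and the later scans. In the first scan AU_Sham hippocampus lay on slide 1 and AU_iTBS hippocampus on slide 2. The second Htr2c probe had the opposite sign (-0.50, SE 0.446), and the mean over both probes differed by 0.045.

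In AU cortex, Htr1d had both the largest difference and the smallest p. It read -2.19, -2.32, -3.39 and -2.65 in AU_Sham and -1.65, -1.65, -1.02, -2.51 and -2.09 in AU_iTBS. The groups overlapped through 1 iTBS animal. The difference was 0.86 (SE 0.308, 95% interval 0.21 to 1.5, unadjusted p 0.0113, limma adjusted p 0.579), with all 5 iTBS animals above the sham mean.

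The 2 cortex arrays labelled AI_iTBS 2 did not match each other, and which of them is that animal's could not be settled, so that every AI cortex value rests on the first. AI cortex ran the other way for Htr1d, at -1.53, -2.04, -1.62 and -2.07 in AI_Sham and -2.74, -2.36 and -2.19 in AI_iTBS, without overlap, as for 4.15% of all probes. That difference was -0.62 (SE 0.351, limma adjusted p 1). The contrast of the 2 iTBS effects was -1.47 (SE 0.467, 95% interval -2.45 to -0.50, unadjusted p 0.00482, limma adjusted p 0.471). Within the first scan it was -0.85 and in the later ones -1.97. The sham groups themselves read differently, with AU_Sham the lowest group mean for Htr1d in the cortex.

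Htr3a in cortex had iTBS differences of opposite sign, at 0.43 in AI (SE 0.230, unadjusted p 0.0755) and -0.39 in AU (SE 0.202, unadjusted p 0.0702), and the contrast was 0.82 (SE 0.306, unadjusted p 0.0146, limma adjusted p 0.526). AI_iTBS read 3.53, 4.36 and 4.24 and AI_Sham 3.70, 3.87, 3.63 and 3.26. Without AI_iTBS 2 the AI difference was 0.27, and in the later scans -0.17. Htr7 had the largest difference in AI cortex, -0.84 (95% interval -2.70 to 1.01). It rested on 1 sham sample at 0.52, the others reading -2.30, -2.47 and -3.22.

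Htr1b in AI cortex gave 0.65 without overlap (SE 0.369, limma adjusted p 1), but none of its 7 samples was well above background, and the second probe gave -1.30 (limma adjusted p 1). No direction can be read from this pair. In AI hippocampus the smallest p was that of Htr1b, at -0.21 (SE 0.161, unadjusted p 0.202), and the largest difference that of Htr7, at -0.48 (95% interval -1.69 to 0.73).

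Over all aged animals, with AU and AI weighted equally, the hippocampus gave intervals that were narrow for the bright probes. Htr5b read 4.36 to 5.09 in the 8 aged sham animals and 4.05 to 4.68 in the 7 measured iTBS animals, a difference of -0.19 (SE 0.116, 95% interval -0.43 to 0.05). Htr3a gave 0.22 (95% interval -0.11 to 0.55) and Htr1a -0.02 (95% interval -0.31 to 0.26). In aged cortex the smallest p among the probes that describe the genes was that of Htr2a, at -0.34 (SE 0.221, unadjusted p 0.137). The largest contrast of the iTBS effect between aged and young hippocampus was Htr2a, at -0.73 (SE 0.371, unadjusted p 0.0642), and in cortex Htr4, at 0.85 (SE 0.555, unadjusted p 0.141). With scan batch as a block that contrast of Htr4 was 0.43, and it was 0.48 in the first scan and 0.17 in the later ones.

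Htr2c was looked at for itself in aged animals. In aged cortex it read 4.20, 2.57, 2.50 and 2.59 in AU_Sham, 3.27, 2.67, 3.29, 2.48 and 2.55 in AU_iTBS, 3.32, 3.16, 4.14 and 3.76 in AI_Sham, and 2.94, 3.54 and 3.26 in AI_iTBS. Every treated value lay within the range of the sham values except 1, at 2.48. The aged iTBS difference was -0.23 in the cortex (SE 0.261, 95% interval -0.77 to 0.31) and 0.18 in the hippocampus (SE 0.217, 95% interval -0.27 to 0.64), and neither interval excludes 0. The second probe gave -0.94 in aged cortex (SE 0.379, unadjusted p 0.0223, limma adjusted p 1), and only 4 of 24 cortex arrays measured it above background.

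**Figure D4:**
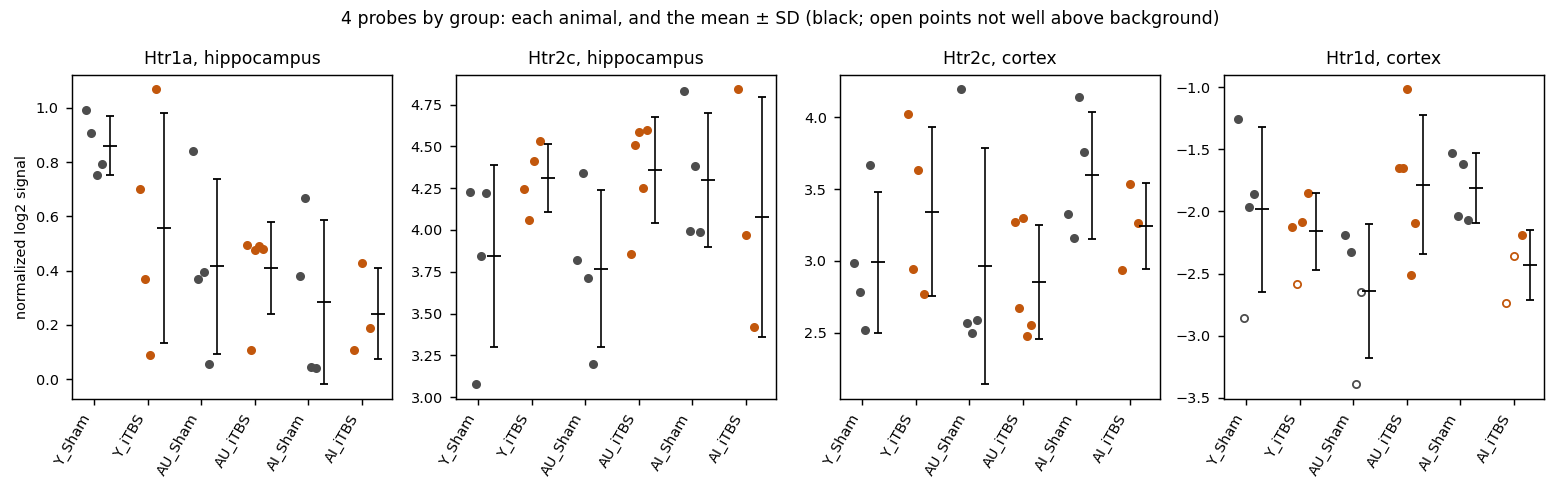
Normalized log2 signal (vertical axis) of 3 receptors in 4 panels by group, for Htr1a and Htr2c in the hippocampus and Htr2c and Htr1d in the cortex. Each point is an animal, gray for sham and orange for iTBS, with the group mean ± SD in black and open points not well above background. Htr1a in Y_Sham lies between 0.75 and 0.99, and AU_Sham 1, at 4.20, stands apart for Htr2c in the cortex.

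A selection rebuilt here after the criteria in the study's methods, which need not pick the probes the study picked, combines an analysis of variance over groups, a z-test with its false discovery rate, a z-ratio and a mean z-score and took between 12 and 59 probes per comparison. It took none of the 10 receptors in the 4 cortex comparisons and none of the 8 it could be run on in the 4 hippocampus comparisons, each by 1 probe. Htr1b and Htr5b could not be run there because a spot of each had been left out.

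The sham animals alone allow age and water maze status to be compared. No receptor passed the adjusted threshold. Of all probes, 0.00308% passed between aged and young hippocampus and 0.104% in cortex, 0.00308% and 0.0491% for AU against young, 0% and 0.0767% for AI against young, and 0% in both regions for AI against AU. At an unadjusted p of 0.05, 1 of 9 receptors in the hippocampus passed in each comparison with young animals, against 8.22% of all probes for aged, 5.1% for AU and 9.15% for AI, and 0 for AI against AU (4.03%). In the cortex 0 of 10 passed for aged (9.47%) and AU against young (8.66%), 1 for AI against young (8.09%) and 2 for AI against AU (6.44%).

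Htr1a in the hippocampus had the smallest p. It read 0.99, 0.91, 0.75 and 0.79 in Y_Sham, 0.84, 0.37, 0.40 and 0.06 in AU_Sham and 0.38, 0.67, 0.04 and 0.04 in AI_Sham. All 8 aged animals lay below the young mean, and 1 of them, in AU_Sham, within the young range. The aged minus young difference was -0.51 (SE 0.164, 95% interval -0.85 to -0.17, unadjusted p 0.00532, limma adjusted p 0.564).

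The difference was -0.58 for AI (unadjusted p 0.00619, limma adjusted p 0.513), without overlap, as for 5.46% of probes, and -0.44 for AU (unadjusted p 0.029). Within the first scan the aged difference was -0.51 and in the later ones -0.34. The iTBS animals read 0.70, 0.37, 0.09 and 1.07 when young, so that Y_iTBS spanned all but 3 of the 8 aged sham values.

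In sham cortex, Htr1b read -2.71, -2.46, -2.78 and -1.92 in Y_Sham, -1.59, -3.13, -2.30 and -2.37 in AU_Sham and -3.47, -3.15, -3.76 and -3.46 in AI_Sham. AI_Sham lay below every other sham animal, and 4.48% of all probes did not overlap between AI and young cortex, but none of its 4 samples was well above background and only 1 of 4 in AU_Sham. The AI minus AU difference was -1.11 (SE 0.341, unadjusted p 0.0038, limma adjusted p 0.602) and AI minus young -0.99 (unadjusted p 0.00852, limma adjusted p 0.491). With normexp background correction the AI minus AU difference was -0.28. The second probe did not share it: its AI_Sham values were -1.98, -2.19, -2.81 and -3.55, against -2.81, -2.83, -3.32 and -3.70 in AU_Sham.

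Htr1d in sham cortex was higher in AI than in AU by 0.83 (SE 0.325, unadjusted p 0.0189, limma adjusted p 0.691), again without overlap. Both genes belong to the 3.52% of probes that did not overlap between AI and AU cortex. AU against young gave -0.66 for Htr1d (unadjusted p 0.0565). Htr5b in sham cortex was 1.12 higher in AI than in young animals (SE 0.709, 95% interval -0.35 to 2.60), with 2 of 4 AI and 0 of 4 young samples above background. In the hippocampus, AI against AU gave 0.53 for Htr2c (unadjusted p 0.0948) and 0.68 for Htr7 (95% interval -0.44 to 1.80), and AU against young -0.60 for Htr7 (95% interval -1.72 to 0.52).

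Outside the receptors, 1 gene of the serotonin lists passed an age comparison. Slc22a3, a low-affinity carrier that clears serotonin and other monoamines from the extracellular space, read 1.07, 1.28, 0.38 and 0.64 in the cortex of Y_Sham, -0.15, -0.09, -0.01 and -0.62 in AU_Sham and -0.13, -0.00, -0.24 and -0.22 in AI_Sham. No aged sham animal reached the lowest young one, as for 1% of probes. It was lower in aged animals by -1.02 (SE 0.155, limma adjusted p 0.00435), with -1.06 for AU (adjusted p 0.0201) and -0.99 for AI (adjusted p 0.0281). The call was lost within the first scan (-0.71, adjusted p 0.44), in the later scans (-1.31, adjusted p 0.138) and when only the groups compared were fitted (-1.02, adjusted p 0.102), each with the same direction. The AU call was also lost without AU_Sham 2, AU_Sham 4, Y_Sham 1 or Y_Sham 2, and the AI call without AI_Sham 1, AI_Sham 3, AI_Sham 4, Y_Sham 1, Y_Sham 2 or Y_Sham 4. Of 16 other settings, each was lost in 5.

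The iTBS animals had a like order for Slc22a3 in the cortex, at 1.01, 1.27, 0.70 and 1.08 in Y_iTBS, -0.37, 0.12, 0.04, -0.08 and -0.17 in AU_iTBS, and -0.37, -0.49 and -0.36 in AI_iTBS. None of the other pathway or marker lists held a called gene in an age, status or iTBS comparison.

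Some receptors were set against marker lists over the 24 animals, in 6 relations. Cortical Htr5b rose with the mean of the hippocampus markers in the same cortex sample (r 0.641, permutation p 0.00056, adjusted over the 6 relations 0.00336; rho 0.496, permutation p 0.0142, adjusted 0.0457). Without the 2 animals farthest out on the marker axis r was 0.454, and it was 0.765 over the 15 animals of the first scan and 0.722 over the other 9. The cortex sample AI_iTBS 2 lay at the upper end, with Htr5b at 0.06 and a marker mean of 3.25, where the others ran from 2.36 to 3.12. In the same sample the hippocampal genes Klk8 (0.07, others at most -0.42) and Fibcd1 (5.39, others at most 4.79) had their highest cortex values. The 2 cortex arrays labelled AI_iTBS 2 did not match, and the one left out read -3.89 for Htr5b. Cortical Htr5b was well above background on 8 of 24 arrays, so the relation rests mostly on values near background. The part of hippocampal tissue in the cortical Htr5b signal was not tested.

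Cortical Htr3a rose with a list of markers of interneurons from the caudal ganglionic eminence, the class that carries this receptor (r 0.617, permutation p 0.00128, adjusted 0.00384; rho 0.495, permutation p 0.0152, adjusted 0.0457). Without the 2 farthest animals r was 0.544, and it was 0.406 in the first scan and 0.594 in the others. The same relation was not seen in the hippocampus (r -0.08, permutation p 0.713). The marker mean ran from 4.17 to 4.72 over the cortex samples. The list was Vip, Reln, Calb2, Adarb2, Npy, Cck, Sncg and Crh, and no cell type was measured. AI_iTBS 2, whose 2 cortex arrays did not match, lay at the upper end, with Htr3a at 4.36 and a marker mean of 4.72. The array of that animal that was left out read 3.70 for Htr3a. The relation was not computed without this animal.

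Htr2c and the choroid plexus markers gave no relation that passed, with r 0.268 in the hippocampus (permutation p 0.203), which was -0.003 without the 2 farthest animals, and r 0.198 in the cortex (permutation p 0.365). In AU_Sham 1, the cortex sample with the highest Htr2c, the choroid plexus mean was -1.71, within the range of the other samples. Cortical Htr2a and the cortex markers gave r -0.313 (permutation p 0.134).

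**Figure D5:**
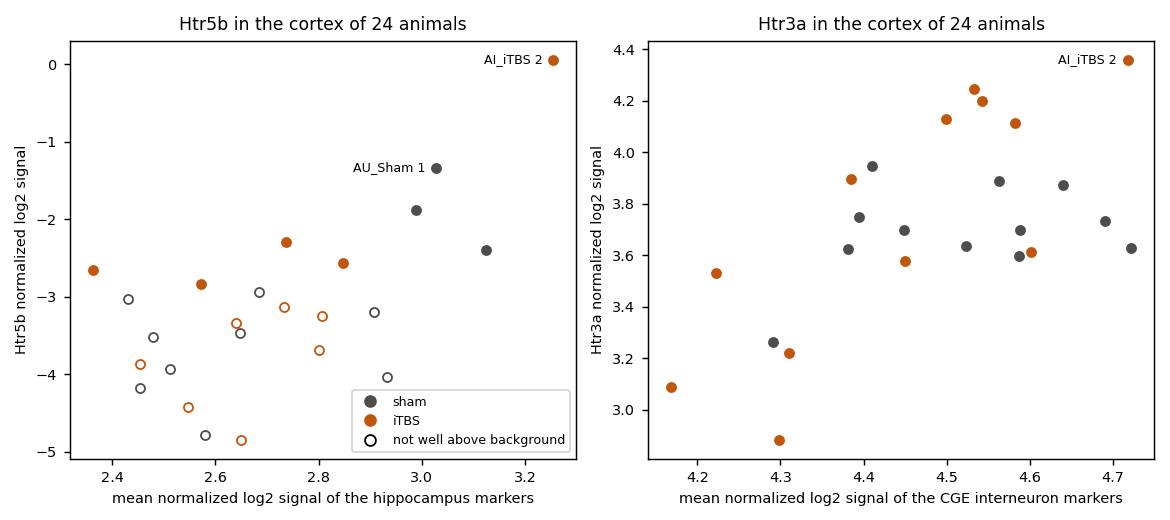
Normalized log2 signal in the cortex of 24 animals, Htr5b against the mean of the hippocampus markers (left) and Htr3a against the mean of the interneuron markers (right). Each point is an animal, gray for sham and orange for iTBS, open where Htr5b was not well above background. AI_iTBS 2 holds the highest value of both receptors.

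Finally, the genes whose signal varied most like that of a receptor over the animals of a region were listed by Pearson r, as a description over 24 samples (23 for Htr1b and Htr5b in the hippocampus) that share array batches. In the hippocampus these were Rnf145 (0.918), Crlf3 (0.883) and Ip6k2 (0.879) for Htr1a, Wfs1 (0.765), Arsi (0.754) and Lingo3 (0.739) for Htr1b, and Aar2 (0.858), Dscaml1 (0.843) and Cdk5r2 (0.836) for Htr5b. For Htr2a they were Slc4a10 (0.883), Nr2c2 (0.873) and Stam2 (0.859), for Htr2c Slc35g2 (0.856), Ldlrad4 (0.767) and Hs6st2 (0.765), for Htr3a Il1rapl2 (0.867), Arpp21 (0.859) and Kcnc2 (0.851), and for Htr4 Hbegf (0.778), Peli3 (0.775) and Synb (0.764). Wfs1 is itself known as a transcript of hippocampal field CA1.

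In the cortex, where fewer receptors were bright, they were Gsr (0.879), Zbtb33 (0.872) and Zdhhc17 (0.854) for Htr2a, Fermt1 (0.886), Cbln1 (0.794) and Amn (0.719) for Htr2c, Fam124a (0.876), Gnptg (0.87) and Polr1g (0.868) for Htr3a, and Defb36 (0.712), Hcrt (0.698) and Mcm6 (0.686) for Htr1d.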

How the data were processed

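The data are 1-color Agilent rat arrays, 56 in all: 48 first arrays of 24 animals in 2 regions and 8 repeats. Feature Extraction 12.0.3.1 was named in the submitters' processing notes. The deposited scanner files hold spot intensity values, and the authors also deposited a z-score per probe, made from the log2 intensity by centering each array on its mean and dividing by its SD. A z-score computed from the processed signal over all spots matched the deposited score within 0.005. The score used here was computed anew without control and flagged spots, after the spots of a probe were averaged. It was put back on the log2 scale by a common factor, the arrays' mean SD of 4.08. Of the 45598 probes, 46.3% were given a gene symbol through RefSeq (GRCr8).

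A probe was tested where 3 or more of the 24 animals of a region passed the background call, 32438 in the hippocampus, 32612 in the cortex and 33736 for the difference between regions. limma 3.58.1 (R 4.3.3) was fitted with 6 group means per region, or on the hippocampus minus cortex difference within animals, and p was adjusted by Benjamini-Hochberg over all probes, at a threshold of 0.05. Aged contrasts weight AU and AI equally. Nothing tells whether animals shared a litter or a day, so p-values measure the spread between these animals. Correlations used 100000 permutations (two-sided). A fold given as "at least" sets the dim region or group no lower than the dimmest probe well above background on each array (-3.79 to -2.49). It is a bound under this normalization only, and with normexp the differences of dim probes between regions were smaller. Precision is limited by the number of arrays.

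All 10 receptors are named. A receptor is described animal by animal where it passed or had the largest difference or the smallest p of a comparison, other lists by counts with the called genes of largest difference, at most 4 per list. A result of the Gq list is not reported here. Genes with several probes are described by the brightest, and counts of receptors and the smallest p of a comparison refer to these probes. The receptors, lists and alternatives were chosen with earlier results of these data known. The lists cover other serotonin receptors, synthesis, transport and breakdown, the Gi/o, Gq and Gs arms, receptor partners, and markers of choroid plexus, habenula, thalamus, hippocampus, cortex and interneurons; of the 3 thalamus markers 1 was lower in sham hippocampus, and of the 8 interneuron markers 3 were higher and 5 lower.

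Repeat arrays were averaged with the first, after a check over 500 probes: 6 repeats correlated at 0.696 to 0.935 with their own first array. The cortex repeat of AI_iTBS 2 correlated at 0.064 with its own array and 0.757 with that of AI_Sham 2 and was left out, as was 1 array whose title and description name different animals, the title a young sham one, and which was put in no group. Replicate numbers were not taken as pairs within a region: same-numbered animals deviated together, at over 0.1 in every pair, in only 1 of 12 comparisons (AI iTBS against sham in cortex, 0.14 to 0.389). The alternatives were 75th percentile, quantile and normexp normalization (offset 50, on the median spot signal, as the mean signal was not used here), the deposited score, filters on dim probes, spot flags, repeats, batch and slide blocks, batches alone, the groups compared alone, and leaving out each animal. The fit was also run on simulated data with known changes.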

Additional observations from a re-analysis of the deposited data

Results flagged for a closer look

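In 5 of the 94 groups of 4 or 5 animals that were tested for a single value far from the rest (Dixon's test at the 95% level, receptors tested in that region), 1 animal stood apart, and chance flags about 1 group in 20. All 5 values were well above background. Htr1a in the hippocampus of AU_iTBS 2 read 0.11, where the other 4 animals read 0.48 to 0.50. Htr2c in the cortex of AU_Sham 1 read 4.2, and the other 3 read 2.50 to 2.59. Htr3a in the cortex of Y_iTBS 1 read 3.58, below 4.11 to 4.20 in the others. Htr4 in the hippocampus of AI_Sham 1 read -1.18, below -0.67 to -0.61. Htr5b in the hippocampus of Y_iTBS 4 read 5.06, above 4.51 to 4.52.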

How the results depend on the processing

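The counts of receptors that passed stayed within 1.5 times those reported in all 25 comparisons under 15 to 17 other settings each and with each animal left out: 0 receptors throughout within a region, 7 to 9 for the difference between regions in sham animals (9 with any animal left out) and 7 to 9 in iTBS animals. With the replicate number as a block, 0 receptors passed in the 20 comparisons within a region, and with no replicate block between regions 9 passed in sham and 8 in iTBS animals, as with it. The block changed no call.

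Of 52 single differences of the receptors followed through 2051 alternatives, 2031 kept direction and side of the threshold, 8 lost a call and 12 changed sign. None that changed sign had passed. Lost calls were Htr5a between sham regions with normexp (-0.19), with scan batch as a block (-0.40) and in the first scan (-0.52), Htr2c in sham animals in the later scans (0.63) and by the mean over probes (0.60), and Htr3a in the later scans (sham -0.49, iTBS -0.04) and without AI_iTBS 2 (-0.29). Normexp drew dim probes together: the sham regional difference fell to 5.44 for Htr5b, 1.47 for Htr1a, 0.94 for Htr1b, 0.81 for Htr4 and -0.44 for Htr1d, all still past the threshold.

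In the later scans alone, the sign turned for Htr3a under iTBS in aged hippocampus (-0.016) and AI cortex (-0.166), for Htr7 under iTBS in AI cortex (0.308) and AI hippocampus (0.549), for Htr7 in sham AI minus AU hippocampus (-0.475) and for Htr1b in sham aged minus young cortex (0.057). With the mean over probes it turned for Htr2c in hippocampus, in the AI minus AU iTBS effect (0.33) and in sham AI minus AU (-0.183), and with normexp for Htr1b under iTBS in AI hippocampus (0.001). Leaving out single animals gave -0.007 to 0.349 for Htr2c under iTBS in aged hippocampus, -0.898 to 0.25 for Htr7 under iTBS in AI hippocampus and -0.056 to 1.093 for Htr7 in sham AI minus AU hippocampus, where AI_Sham 3 decides both Htr7 values. The cause was not tested. The deposited score took the median of all probes from 0.042 to 0.108 for iTBS in AU cortex and from -0.057 to -0.148 for the AI minus AU iTBS effect in cortex. No value could be had for Htr1b between regions in the later iTBS scans. Most limits come from signal: Htr1d in hippocampus and Htr4, Htr5b and Htr1b in cortex lay below background on most arrays, so that differences there rest on few measured values.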

Other observations

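An array of hippocampus whose title names a young sham animal and whose description names an AU iTBS animal was put in no group. It read 0.48 for Htr1a, 4.40 for Htr2c, 3.54 for Htr3a, -0.13 for Htr2a, -0.39 for Htr4 and 4.75 for Htr5b. Over 500 probes it correlated at 0.93 with the hippocampus of AU_iTBS 4 and at 0.365 with the next animal. The cortex repeat labelled AI_iTBS 2, which was left out, read -3.89 for Htr5b, 3.70 for Htr3a and 3.30 for Htr2c. The first cortex array of that animal read 0.06, 4.36 and 3.54, and the cortex of AI_Sham 2 read -3.47, 3.87 and 3.16.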
